A study of Homo sapiens with 16 samples.

Results

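The 10 genes PRRX1, TWIST1, SNAI2, YAP1, WWTR1, FOSL1, FOSL2, RUNX1, NOTCH2 and VIM are known for the mesenchymal state of neuroblastoma, and they were taken by name from the 20090 protein-coding genes of chromosomes 1 to 22 and X. For each gene, the share of its body and of 10 kb on either side that lay inside broad enriched regions (islands) of H3K4me1 and of H3K27me3 was read from 16 CUT&Tag libraries of BE2C cells, a human neuroblastoma line with amplified MYCN. CUT&Tag tethers a transposase to an antibody against the mark, so that DNA beside the mark is cut and sequenced. For each mark there were 2 replicates of 4 groups. Cells carrying siKDM6B33, a small interfering RNA against KDM6B, were set against cells carrying the control siCtrl (the knockdown experiment), and cells given 2.5 µM GSKJ4 were set against cells given 0.1% DMSO (the compound experiment), all for 72 h. Every group came from the same line without other engineering, and the study describes the replicates as biological. The lists hold no measure of KDM6B RNA or protein, so the knockdown itself was not checked here.

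Neuroblastoma cells are known to occupy a sympathetic-like adrenergic state, held by factors such as HAND2 and GATA3, or a mesenchymal state that resembles neural crest derivatives. PRRX1 and TWIST1 are homeobox and helix-loop-helix factors of mesenchyme, SNAI2 is the zinc-finger repressor Slug, YAP1 and WWTR1 (TAZ) are the coactivators of the Hippo pathway that act through TEAD proteins, FOSL1 and FOSL2 are AP-1 subunits, RUNX1 is a runt-domain factor, NOTCH2 is a receptor, and VIM is the intermediate filament of mesenchymal cells. H3K27me3 is the mark laid down by Polycomb repressive complex 2 over genes held silent, and KDM6B is one of the demethylases that remove it, which GSKJ4 inhibits together with its relative KDM6A. H3K4me1 marks enhancers and the flanks of promoters. Neither mark measures transcription.

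DNA under the strongest peaks showed where the marks sat at these genes. The peak with the highest fold enrichment at its summit is given for 3 genes, as 200 bp of hg19 on the + strand around the summit with CG dinucleotides in capitals, since the genes' peaks ran from CpG-free to CpG-dense. FOSL2 and TWIST1 held H3K4me1 peaks found in 7 of 8 libraries, and PRRX1, with H3K27me3 at its start throughout, was added after its values were seen.
PRRX1 H3K27me3 chr1:170630461-170630660: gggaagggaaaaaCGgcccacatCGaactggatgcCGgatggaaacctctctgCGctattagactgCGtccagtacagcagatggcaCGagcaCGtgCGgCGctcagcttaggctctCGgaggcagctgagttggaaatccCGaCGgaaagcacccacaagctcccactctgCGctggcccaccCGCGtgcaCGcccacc
FOSL2 H3K4me1 chr2:28615366-28615565: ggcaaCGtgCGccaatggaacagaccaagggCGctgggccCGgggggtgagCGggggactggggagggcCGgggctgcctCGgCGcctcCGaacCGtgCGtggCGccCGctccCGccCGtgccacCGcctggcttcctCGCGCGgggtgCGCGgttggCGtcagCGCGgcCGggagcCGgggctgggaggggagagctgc
TWIST1 H3K4me1 chr7:19101983-19102182: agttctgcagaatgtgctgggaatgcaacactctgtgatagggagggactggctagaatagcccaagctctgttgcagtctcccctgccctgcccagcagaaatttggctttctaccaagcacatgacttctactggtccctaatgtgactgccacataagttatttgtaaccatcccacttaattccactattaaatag

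The PRRX1 window lay in intergenic DNA 2.71 kb before the start of the gene's MANE Select transcript, the reference transcript that 18876 of the 20090 genes have. In shares over all genes at such starts, the canonical transcript stood in for 935 others and the whole gene for 279. It held 16 CG dinucleotides, a number reached by 16.2% of the H3K27me3 peaks of its library, where the median was 4. At FOSL2 the H3K4me1 window lay at -0.259 kb from the transcript start, inside longer transcripts of FOSL2 and the antisense gene FOSL2-AS1, and held 26, reached by 4.50% of peaks. The TWIST1 window held none, lay 55.2 kb downstream of the start inside an intron of the longer TWIST1 gene model, and carried one match to the TEAD letters GGAATG. Windows of 1000 bp centred on the transcript starts of the 10 genes varied widely in CG dinucleotides. They held 118 at YAP1, 107 at TWIST1, 105 at FOSL2, 103 at FOSL1, 90 at NOTCH2 and 76 at WWTR1. The lowest were 55 at VIM, 49 at SNAI2, 47 at PRRX1 and 17 at RUNX1. The median of the 10 was 83, beside 66 over the starts of all 20090 genes.

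The measure is coverage by islands, and as each library had its own list from the authors, a value of 0 means that no region passed the caller's threshold and not that the mark was absent. The lists held 17765 to 24917 islands for H3K4me1 and 7175 to 16676 for H3K27me3. Depth was unequal. The background of each library, in sequenced tags per base, was 0.0849 to 0.107 for H3K4me1 in the knockdown experiment against 0.0483 to 0.0569 in the compound experiment, and for H3K27me3 it was 0.0529 and 0.0539 with siKDM6B33 against 0.0395 and 0.0401 with siCtrl, and 0.0507 and 0.0371 with GSKJ4 against 0.0298 and 0.0338 with DMSO. The siKDM6B33 libraries were deeper than their controls in both marks and the GSKJ4 libraries in H3K27me3, and the part of depth in the differences below was not tested. GSKJ4 replicate 1 stood apart for H3K27me3, with 16676 islands against 8006 in replicate 2 and some coverage at 40.4% of all genes against 25.4% to 28.2% in the other 7 libraries. Of 4 markers of fibroblasts and endothelium, cells that a line should lack, H3K4me1 covered COL1A1 over 16.5% to 37.3% in the 8 libraries, was at 0 at COL1A2 in all 8 and at COL3A1 in 6, and at CDH5 in 4.

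PRRX1 (chr1:170621869-170718562 with its flanks, 96.7 kb) carried a broad H3K27me3 island over its start in all 8 libraries. H3K27me3 covered 18.2% and 16.1% of the window with siCtrl, 22.3% and 33.7% with siKDM6B33, 19.9% and 15.7% with DMSO and 16.8% and 19.6% with GSKJ4. The 2 siKDM6B33 values were the highest of the 8, and the other groups overlapped. In every library the main island ran from 5.07 to 9.07 kb before the transcript start to between 8.73 and 11.1 kb inside it. An island 4.0 kb wide, which began 64.9 or 65.1 kb downstream, was listed in both siKDM6B33 libraries and in none of the other 6, and replicate 2 alone added islands of 5.8 and 3.4 kb between. H3K4me1 lay inside this domain. It covered 0% in both siCtrl libraries, 6.21% and 7.45% with siKDM6B33, 11.2% and 6.62% with DMSO and 7.03% and 8.89% with GSKJ4, in a single island astride the start.

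TWIST1 (chr7:19050614-19167259, 117 kb) was the reverse case. H3K4me1 covered 21.1% and 20.7% with siCtrl, 27.8% and 30.0% with siKDM6B33, 11.8% and 6.00% with DMSO and 4.29% and 0.686% with GSKJ4, so that the 4 groups did not overlap. H3K27me3 was at 0 in 7 libraries and at 5.32% in GSKJ4 replicate 1, the library that stood apart. In the knockdown experiment 4 or 5 separate H3K4me1 islands followed one another within 29.7 kb of the transcript start, with another 54.5 to 64.1 kb away, and the first of them covered the start itself in all 4 libraries. None covered the start in the compound experiment.

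SNAI2 carried no H3K27me3 island in any of the 8 libraries. Its 24.1 kb window on chromosome 8 (positions 49820157 to 49844299) was covered by H3K4me1 over 29.0% and 31.5% with siCtrl, 31.5% and 41.4% with siKDM6B33, 9.94% and 7.46% with DMSO and 0% in both GSKJ4 libraries. All 4 knockdown-experiment libraries lay above all 4 of the compound experiment, and the DMSO libraries above both GSKJ4 libraries. At both TWIST1 and SNAI2, H3K4me1 was higher in each siCtrl library than in each DMSO library, both being control groups of the same line.

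YAP1 (chr11:101971178-102114155, 143 kb) resembled PRRX1. A H3K27me3 island lay over its start in all 8 libraries, and the mark covered 6.85% and 4.34% with siCtrl, 11.1% and 6.85% with siKDM6B33, 4.62% and 3.64% with DMSO and 4.48% and 8.83% with GSKJ4, with overlap between treated and control libraries in both experiments. H3K4me1 sat as an island of 2.2 to 2.8 kb at the start inside that domain, covering 0% in both siCtrl libraries, 1.82% and 1.68% with siKDM6B33, 1.96% and 1.54% with DMSO and 0% and 1.68% with GSKJ4.

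WWTR1 (chr3:149225022-149464501, 239 kb, with COMMD2 in its flank) carried far less. H3K27me3 covered 0.919% in both siCtrl libraries and 1.09% and 3.42% with siKDM6B33, and it was at 0 in all 4 libraries of the compound experiment. The island spanned the start of the MANE Select transcript, and siKDM6B33 replicate 2 held another of 5.4 kb further inside. H3K4me1 was listed in the siKDM6B33 libraries alone, at 1.00% and 0.919%, again at that start.

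FOSL1 (chr11:65649520-65678044, 28.5 kb) had the highest mean coverage of the 10 genes in both marks. H3K27me3 covered 49.1% in both siCtrl libraries, 45.0% and 46.3% with siKDM6B33, 78.5% and 72.9% with DMSO, and 35.1% and 84.4% with GSKJ4. The GSKJ4 replicates were the lowest and the highest of the 8 libraries. H3K4me1 covered 27.3% in both siCtrl libraries, 52.9% and 62.7% with siKDM6B33, 31.6% and 29.4% with DMSO and 37.2% and 43.5% with GSKJ4. The window also holds FIBP, CCDC85B and CTSW, and with siCtrl both H3K4me1 islands lay 6.46 to 16.1 kb from the FOSL1 start, over the end of FOSL1 and its neighbours. An H3K4me1 island at the FOSL1 start was listed in the other 6 libraries, and the strongest H3K4me1 peak of the window lay in FIBP.

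FOSL2 (chr2:28605315-28650184, 44.9 kb) had H3K4me1 at its start in all 8 libraries and almost no H3K27me3. H3K4me1 covered 16.5% and 27.2% with siCtrl, 17.4% in both siKDM6B33 libraries, 8.02% and 14.7% with DMSO and 21.8% and 8.02% with GSKJ4, and treated and control libraries overlapped in both experiments. H3K27me3 was at 3.57% in GSKJ4 replicate 1 and at 0 in the other 7.

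RUNX1 (chr21:36150098-37386965) has a gene model of 1217 kb in this annotation against 262 kb for its MANE Select transcript, so that small percentages stand for long stretches. H3K27me3 covered 0.792% and 1.02% with siCtrl, 4.08% and 4.27% with siKDM6B33, 0.792% and 0.695% with DMSO and 0.485% and 0.647% with GSKJ4. Both siKDM6B33 libraries were far above the other 6. They listed 12 islands each, against 2 in each siCtrl library and 1 in each library of the compound experiment. The shared island lay 156 to 167 kb inside the MANE Select transcript. Among the islands of both siKDM6B33 libraries were ones over its start, ones 56.2 to 63.4 kb inside it and several between 175 and 236 kb, while islands upstream of that start differed in place between the replicates. H3K4me1 was listed only at the shared site, as 1 island of 3.0 to 4.4 kb in 6 libraries, covering 0% in both siCtrl libraries, 0.291% and 0.356% with siKDM6B33, 0.275% and 0.307% with DMSO and 0.307% and 0.243% with GSKJ4.

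NOTCH2 (chr1:120444176-120653366, 209 kb) had neither an H3K4me1 island nor an H3K4me1 narrow peak in any of the 8 libraries. H3K27me3 covered 1.82% and 3.54% with siCtrl, 8.22% and 8.70% with siKDM6B33, 0% in both DMSO libraries and 0% and 5.93% with GSKJ4. All of it lay at the far end of the gene, 143 to 163 kb from the transcript start, where the widest of 3 islands in each siKDM6B33 library, 14.2 and 14.0 kb, stood against islands of 3.4 to 4.0 kb with siCtrl. NOTCH2 has near-identical relatives elsewhere on chromosome 1, and with uniquely mapped reads alone the mark in shared sequence can be missed.

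VIM (chr10:17260240-17289592, 29.4 kb, overlapping VIM-AS1) differed between replicates of the compound experiment in both marks. H3K27me3 covered 8.86% and 10.2% with siCtrl, 14.3% and 10.2% with siKDM6B33, 11.6% and 0% with DMSO and 7.50% and 0% with GSKJ4. H3K4me1 covered 0% in both siCtrl libraries, 15.7% and 17.0% with siKDM6B33, 12.3% and 0% with DMSO and 0% in both GSKJ4 libraries. Every island of either mark lay between 2.04 kb before the transcript start and 2.96 kb inside it.

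**Figure D1:**
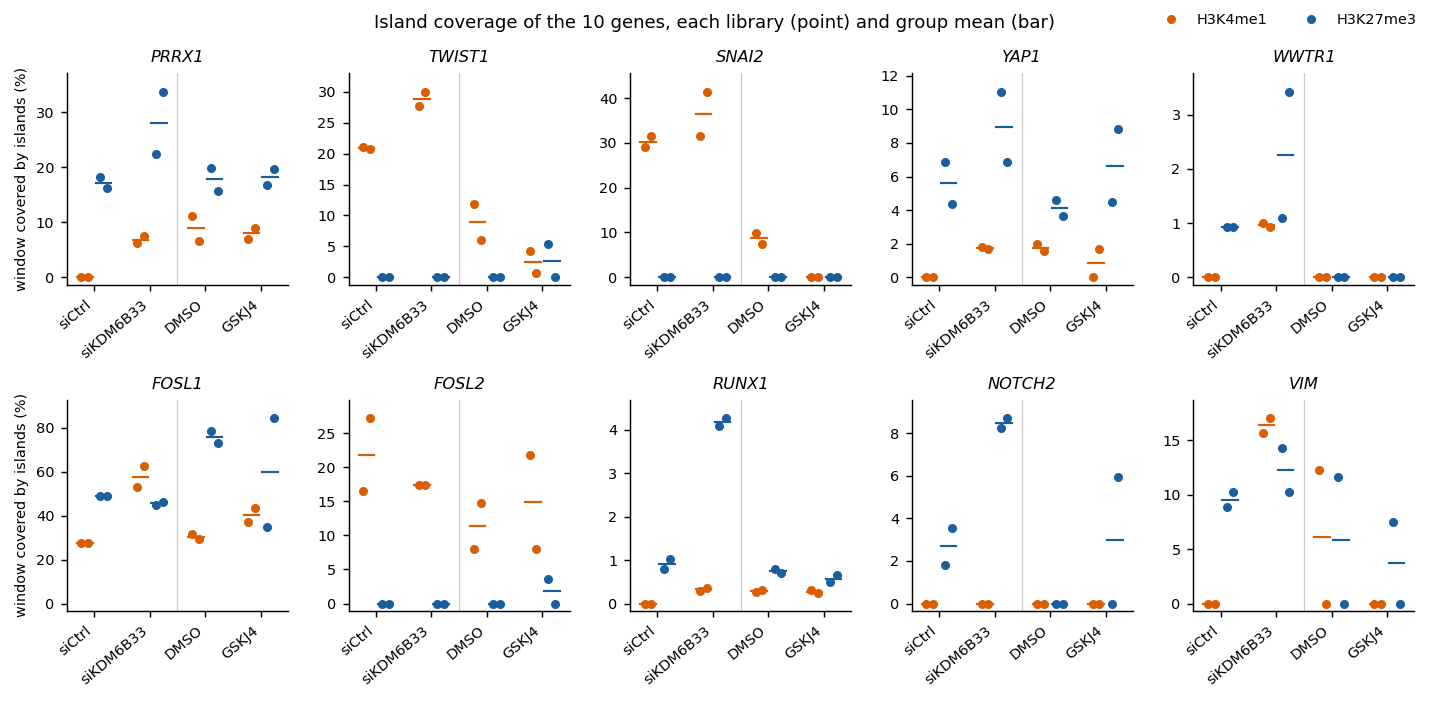
Share of each gene's window (body and 10 kb on either side, %) inside H3K4me1 (orange) and H3K27me3 (blue) islands, with a point for each library, a bar for the mean of the 2 replicates and a separate vertical scale for each gene. PRRX1, YAP1 and RUNX1 carried more H3K27me3, TWIST1, SNAI2 and FOSL2 more H3K4me1, and RUNX1 H3K27me3 with siKDM6B33, at 4.08% and 4.27%, stands above the other 6 libraries.

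The first question is which mark each gene carried. PRRX1, YAP1 and RUNX1 were covered more by H3K27me3 than by H3K4me1, and FOSL2, TWIST1 and SNAI2 more by H3K4me1. H3K27me3 coverage, as mean ± SD over 8 libraries, was 20.3% ± 5.86 at PRRX1 against 5.92% ± 3.98 for H3K4me1, 6.33% ± 2.58 against 1.08% ± 0.906 at YAP1, and 1.60% ± 1.60 against 0.222% ± 0.141 at RUNX1. An exact two-sided permutation test of the marks within each of the 4 groups gave p = 0.00154 for each of these 3 genes, the smallest that its 1296 arrangements can give, and an adjusted p of 0.00562 over all 16282 genes tested. H3K4me1 exceeded H3K27me3 by 15.9 percentage points at FOSL2 (adjusted p = 0.00562, exact permutation), by 14.6 points at TWIST1 (adjusted p = 0.0157, exact permutation) and by 18.8 points at SNAI2 (adjusted p = 0.0209, exact permutation). In 5 kb around the start TWIST1 did not pass (27.1 points, adjusted p = 0.116, exact permutation), nor did SNAI2 with islands of 2 kb or more (17.0 points, adjusted p = 0.0562, exact permutation). So 3 of the 10 genes passed with more H3K27me3, beside 13.3% of all genes, and 3 with more H3K4me1, beside 36.9%.

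The other 4 did not pass. H3K27me3 was higher by 18.6 points at FOSL1 (adjusted p = 0.0936, exact permutation), which passed in 5 kb around the start (65.3 points, adjusted p = 0.01, exact permutation), by 3.53 points at NOTCH2 (adjusted p = 0.0508), by 0.553 points at WWTR1 (adjusted p = 0.0888) and by 2.21 points at VIM (adjusted p = 0.398), all from the same exact permutation test. Within the knockdown and the compound experiment taken alone, each of the 6 differences kept its sign, with 19.2 and 9.57 points at PRRX1, 6.40 and 4.10 at YAP1 and 2.38 and 0.372 at RUNX1 in favour of H3K27me3. In favour of H3K4me1, SNAI2 differed by 33.3 points in the knockdown experiment but by 4.35 in the compound experiment, and TWIST1 by 24.9 and 4.37. No exact permutation test within 1 experiment can go below p = 0.0556. The median of H3K27me3 minus H3K4me1 was 1.79 points over the 10 genes and -2.41 over all genes tested.

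**Figure D2:**
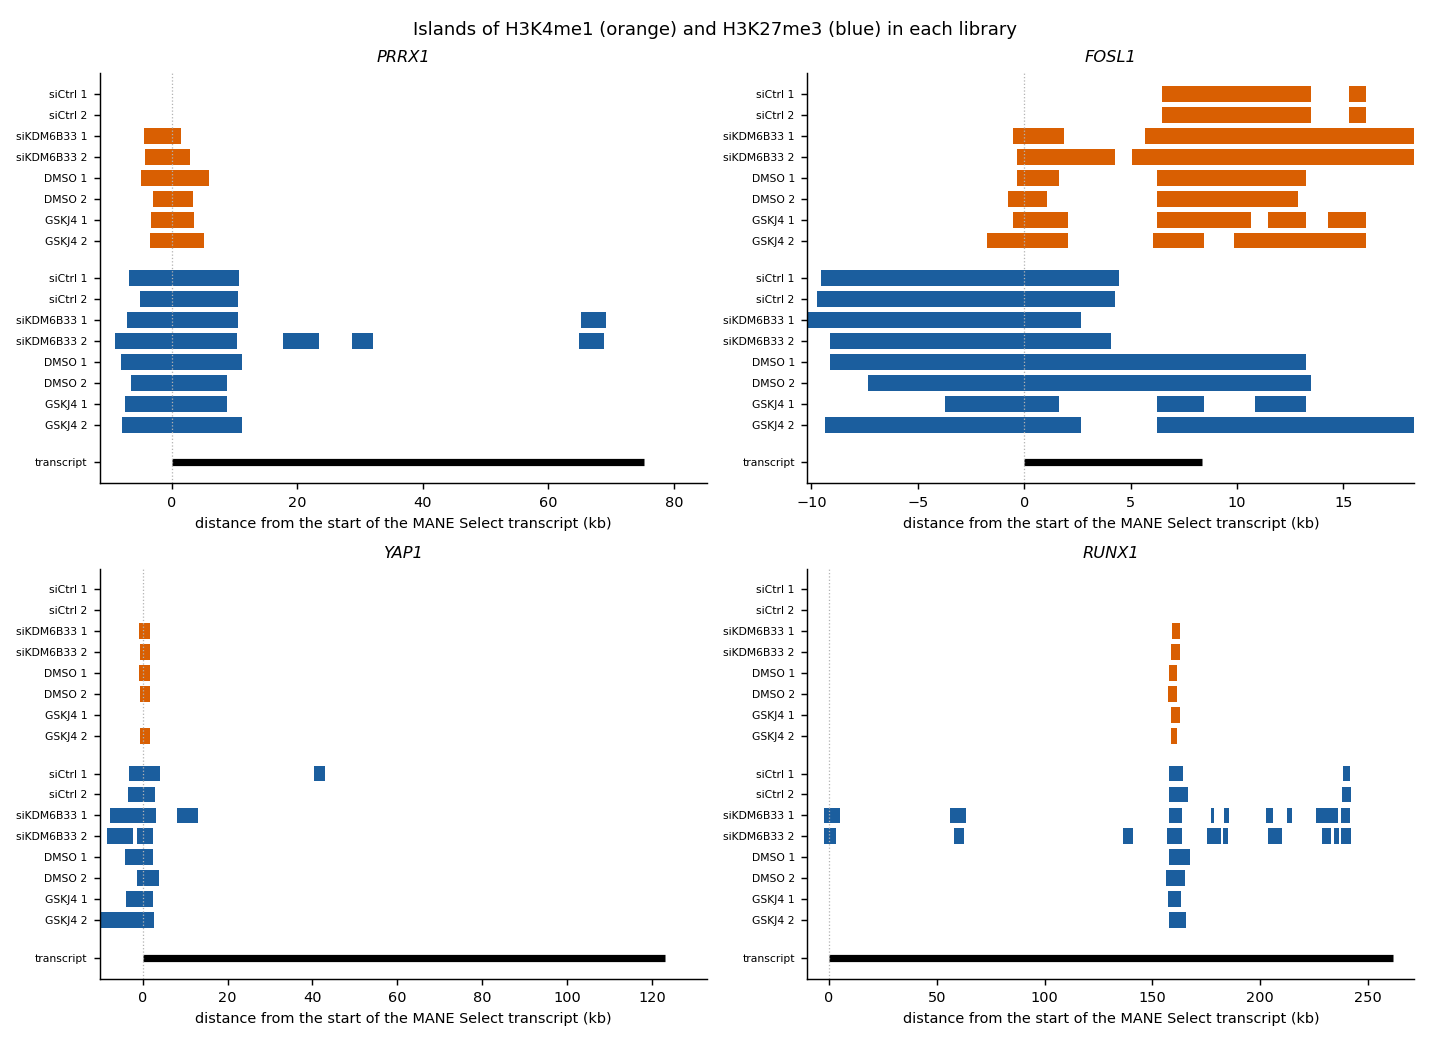
Islands of H3K4me1 (orange) and H3K27me3 (blue) in each of the 16 libraries at PRRX1, FOSL1, YAP1 and RUNX1, drawn to scale by distance in kb from the start of the MANE Select transcript, which is the black bar. The panels reach 10 kb beyond the transcript, so RUNX1 islands far upstream of its start are not drawn. H3K27me3 at PRRX1 and YAP1 surrounds H3K4me1 at the start, siCtrl has no H3K4me1 island at the start of PRRX1, FOSL1 or YAP1, and RUNX1 has 12 H3K27me3 islands in each siKDM6B33 library, counting those not drawn.

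Gene starts were read separately from the windows. The 5′ end of PRRX1, of YAP1 and of FOSL1 lay in an H3K27me3 island in 8 of 8 libraries and that of VIM in 5, while the other 6 genes had none there. The 5′ end of FOSL2 lay in an H3K4me1 island in 8 libraries, those of PRRX1, FOSL1 and SNAI2 in 6, YAP1 in 5, TWIST1 in 4 and VIM in 3, and those of WWTR1, RUNX1 and NOTCH2 in none. With the start of the MANE Select transcript in place of the 5′ end, which was tried after seeing the data, WWTR1 had H3K27me3 at its start in the 4 knockdown-experiment libraries and RUNX1 in the 2 siKDM6B33 libraries, while for H3K4me1 WWTR1 went from 0 libraries to 2 and SNAI2 from 6 to 3.

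Counted by library, 3 of the 10 starts lay in H3K4me1 islands in each siCtrl library and 7 in each siKDM6B33 library, where the share over all genes went from 22.1% and 22.5% to 53.7% in both. With DMSO 6 and 5 did, beside 20.2% and 18.2% of all genes, and with GSKJ4 3 and 4, beside 15.1% and 15.9%. For H3K27me3 the count was 4 in both siCtrl and both siKDM6B33 libraries, 4 and 3 with DMSO and 3 and 3 with GSKJ4, beside 13.2% to 18.4% of all genes. At the MANE Select starts H3K27me3 counts were 5 in both siCtrl and 6 in both siKDM6B33 libraries, beside 15.2% to 16.7% of all genes, and H3K4me1 counts 2 and 3 against 8 and 8, beside 23.3% and 23.7% against 56.8% and 56.9%. No test was made of these counts.

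**Figure D3:**
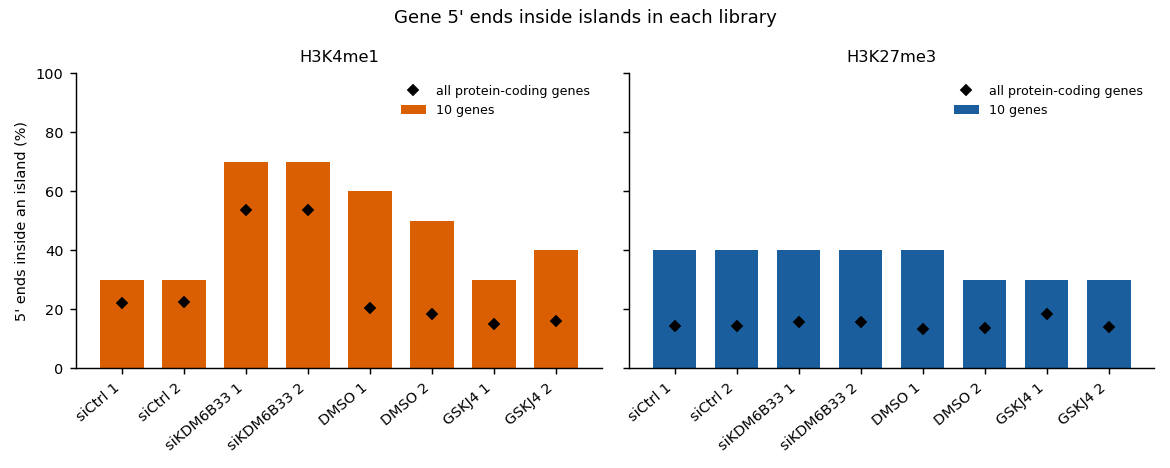
Share (%) of the 10 genes (bars) and of all 20090 protein-coding genes (diamonds) whose 5′ end lay inside an island, in each library of H3K4me1 (left) and H3K27me3 (right). H3K4me1 goes from 3 of 10 genes with siCtrl to 7 of 10 with siKDM6B33, as the diamonds go from 22.1% and 22.5% to 53.7%, while H3K27me3 is at 3 or 4 of 10 in every library at these 5′ ends.

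The marks overlapped on the same bases in 3 of the 4 groups. Over the 10 windows together, the stretch inside islands of both marks was 0 kb in both siCtrl libraries, 21.2 and 23.4 kb with siKDM6B33, 29.4 and 20.8 kb with DMSO and 23.4 and 26.2 kb with GSKJ4, pairing the H3K4me1 and H3K27me3 libraries of the same replicate number. That was 17.0% of the H3K27me3 length of the 10 windows in both siKDM6B33 pairs and 34.4% to 48.1% in the compound experiment. Over all islands the share was 9.06% and 8.92% with siCtrl, 11.3% and 11.4% with siKDM6B33 and 50.1% to 66.9% in the compound experiment, so the 2 experiments differed in this respect across the genome. PRRX1 held 6.0 and 7.2 kb of doubly covered DNA with siKDM6B33, 10.8 and 6.4 kb with DMSO and 6.8 and 8.6 kb with GSKJ4. FOSL1 held 2.4 and 4.4 kb, 9.0 and 8.4 kb, and 6.2 and 12.2 kb in the same order. At RUNX1 the strongest peaks of both marks had the same summit (chr21:36260463), inside an exon of the gene, and at VIM their summits lay 1 bp apart. The strongest peaks of the marks overlapped at RUNX1, VIM and YAP1, 33.3% of the 9 genes with peaks of both, beside 33.1% of 16837 genes.

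Whether the knockdown moved H3K27me3, the substrate of KDM6B, at these genes was tested with limma on the coverage of all genes. RUNX1 rose, by 3.26 percentage points (SE 0.285, n = 2 and 2 libraries, limma adjusted p = 0.00212), from 0.792% and 1.02% to 4.08% and 4.27%. It was the 1 gene called higher among the 7 tested, with none lower, beside 8.91% of 8192 genes called higher and 1.17% lower. PRRX1 differed by 10.9 points (SE 4.24, limma adjusted p = 0.254), NOTCH2 by 5.78 points (SE 1.94, limma adjusted p = 0.172), YAP1 by 3.36 points (SE 2.21) and WWTR1 by 1.34 points (SE 0.735), and none of them passed. VIM differed by 2.73 points (SE 4.52) and FOSL1 by -3.43 points (SE 15.2). TWIST1, SNAI2 and FOSL2, with coverage in fewer than 2 of 8 libraries, were not tested. The median over the 7 was 3.26 points against 0 over all genes, and 3 of the 7 reached an unadjusted p under 0.05, beside 18.8% of all genes.

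The RUNX1 call was lost when each library was reduced to its highest-scoring islands of equal total length (0.679 points, SE 0.462, limma adjusted p = 0.622), where NOTCH2 passed instead (4.06 points, limma adjusted p = 0.00967), and with coverage by narrow peaks (0.0181 points, limma adjusted p = 0.999). In windows of the MANE Select transcript, which for RUNX1 is far shorter than the gene model, its difference was 12.5 points (SE 1.11, limma adjusted p = 0.0022). The reduction to equal length also turned the balance over all genes, from 730 called higher and 96 lower to 145 higher and 789 lower. Without siKDM6B33 replicate 1, which leaves 1 library in that group, the differences were 16.5 points at PRRX1 and 2.51 at WWTR1. At WWTR1 no other group had any spread, so no test is read there. Without either GSKJ4 replicate, which enters only the shared estimate of spread, NOTCH2 passed (limma adjusted p = 0.0218 and 0.0197).

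H3K4me1 after the knockdown gave calls at 7 of the 9 genes tested, all higher, or at 6 of 8 without WWTR1. FOSL1 rose by 30.4 percentage points (SE 3.93, limma adjusted p = 0.00161), VIM by 16.4 (SE 3.89, limma adjusted p = 0.0155), TWIST1 by 7.97 (SE 2.40, limma adjusted p = 0.034) and PRRX1 by 6.83 (SE 1.66, limma adjusted p = 0.0165). YAP1 rose by 1.75 points (SE 0.548, limma adjusted p = 0.0386) and RUNX1 by 0.323 (SE 0.0509, limma adjusted p = 0.00346). WWTR1 was higher by 0.960 points, but it was covered in the 2 siKDM6B33 libraries alone and met the filter of 2 covered libraries only through them, so it had to differ and its test supports nothing. SNAI2 differed by 6.21 points (SE 3.42, limma adjusted p = 0.168) and FOSL2 by -4.46 points (SE 5.92, limma adjusted p = 0.541), and NOTCH2, at 0 throughout, was not tested. Of all 14191 genes, 55.8% were called higher and 8.27% lower, so a rise was the usual outcome in this comparison. Of the 7922 genes called higher, 3667 were likewise covered in the siKDM6B33 libraries alone, and without such genes, or those covered in the siCtrl libraries alone, 40.8% of 10431 were called higher. The median difference was 6.21 points over the 9 genes and 4.05 over all genes.

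At PRRX1, YAP1, WWTR1, RUNX1 and VIM the rise ran from 0% in both siCtrl libraries, and a 0 here is a region under the island caller's threshold. Both siKDM6B33 values lay inside the range of the DMSO libraries at YAP1, and 1 of the 2 did at PRRX1 and at RUNX1. Among the markers of other cells, COL3A1 was covered in the siKDM6B33 libraries alone, at 3.43% and 5.14%, and CDH5 fell by 6.88 points (limma adjusted p = 0.000643) in the same comparison, and their part in it was not tested. The size in points depended on the window. With that of the MANE Select transcript TWIST1 rose by 20.1 points (limma adjusted p = 0.0212) and RUNX1 by 1.42 (limma adjusted p = 0.000712). In the gene body alone FOSL1 rose by 51.0 points and VIM by 30.6 (limma adjusted p = 0.0187 and 0.0392), and with flanks of 5 kb VIM rose by 24.8 (limma adjusted p = 0.0165). In 5 kb around the start PRRX1 rose by 66.0 points, VIM by 48.0, TWIST1 by 36.4 and YAP1 by 25.0 (limma adjusted p = 0.0013, 0.0177, 0.00254 and 0.0433). With islands of equal total length TWIST1 rose by 12.5 points (limma adjusted p = 0.0067), the YAP1 difference was 0 points (limma adjusted p = 1) and WWTR1 was covered in too few libraries to test. TWIST1 did not pass with the gene body alone, with islands joined within 2 kb or on the arcsine square root scale (limma adjusted p = 0.0591, 0.0627 and 0.193), nor YAP1 with the gene body alone (0.0647). Narrow peaks, which cover far less, gave rises of 3.56 points at FOSL1, 1.51 at SNAI2, 1.24 at VIM, 0.559 at TWIST1, 0.517 at PRRX1 and 0.188 at YAP1, with limma adjusted p of 0.000229 to 0.00636. With them RUNX1 did not pass (limma adjusted p = 0.325) and WWTR1 was at -0.0449 points. FOSL1 and RUNX1 kept their calls without any 1 of the 8 H3K4me1 libraries. PRRX1, TWIST1 and VIM lost theirs without any 1 of the 4 knockdown-experiment libraries, with limma adjusted p of 0.0614 to 0.0916, 0.0842 to 0.15 and 0.0655 to 0.0886. YAP1 lost its call without any 1 of these or of the DMSO libraries (limma adjusted p = 0.0644 to 0.157), and SNAI2 passed without siKDM6B33 replicate 1 (11.2 points, limma adjusted p = 0.00914).

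**Figure D4:**
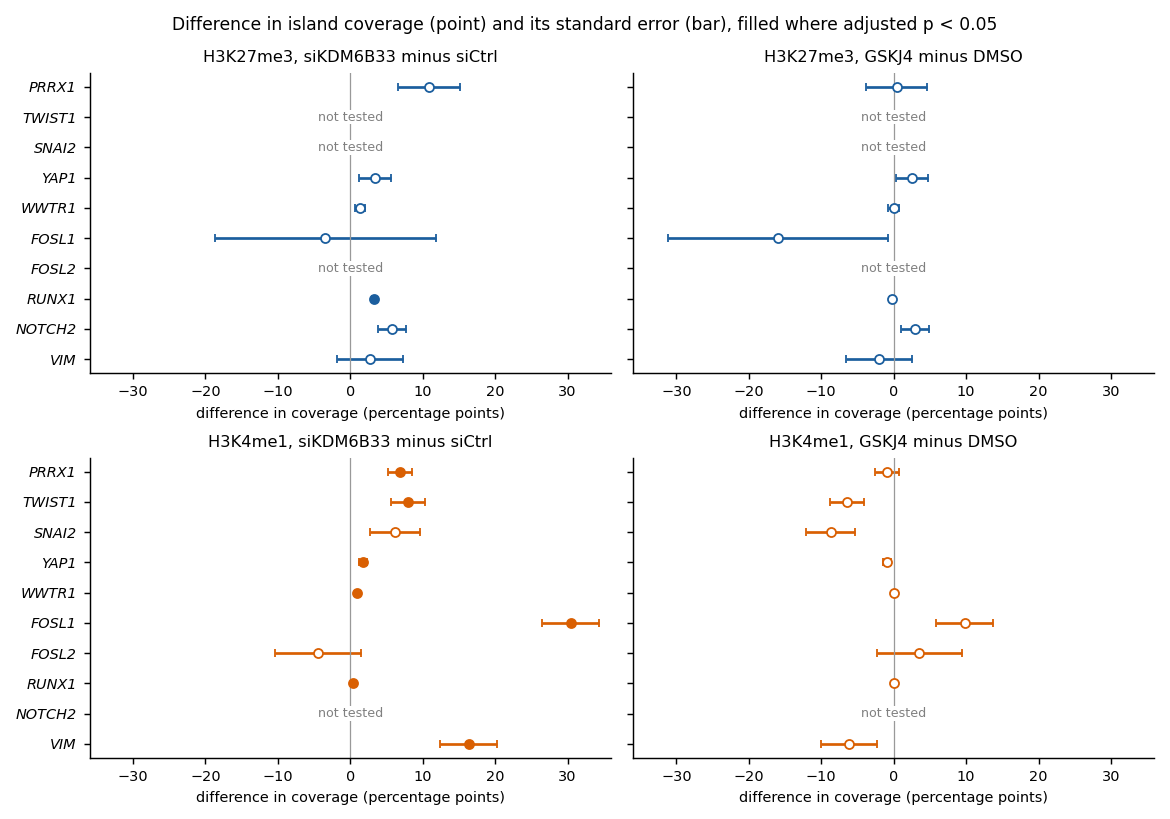
Difference in island coverage (percentage points) between treated and control libraries for each gene, with its standard error from limma as the bar and a filled point where the adjusted p is under 0.05. In H3K4me1 after the knockdown 7 points are filled, FOSL1 highest at 30.4 and WWTR1 among them although covered in the siKDM6B33 libraries alone, in H3K27me3 after the knockdown RUNX1 alone is filled, and none is filled with GSKJ4.

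GSKJ4 moved none of the 10 genes past the threshold. For H3K27me3, 0 of 7 genes tested by limma passed, 0 reached an unadjusted p under 0.05 and the lowest unadjusted limma p was 0.182, while 13.3% of all genes were under 0.05 unadjusted, 2.04% were called higher and 0.293% lower. FOSL1 differed by -16.0 points (SE 15.2), NOTCH2 by 2.96 (SE 1.94), YAP1 by 2.53 (SE 2.21), PRRX1 by 0.414 (SE 4.24), VIM by -2.04 (SE 4.52) and RUNX1 by -0.178 (SE 0.285), and WWTR1 was at 0 in all 4 libraries. The FOSL1 difference was -40.7 points (limma adjusted p = 0.00396) without GSKJ4 replicate 2 and 8.70 points without GSKJ4 replicate 1, the library with the most islands. Within the gene body alone, FOSL1 passed as lower (-48.1 points, limma adjusted p = 0.0329). NOTCH2, at 0% in GSKJ4 replicate 1, passed as higher without it (5.93 points, limma adjusted p = 0.0304).

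For H3K4me1, 0 of 9 genes passed by limma and 1 reached an unadjusted p under 0.05, TWIST1 at -6.43 points (SE 2.40, limma adjusted p = 0.381), beside 12.2% of all genes under 0.05 unadjusted, 1.15% called higher and 0.55% lower. SNAI2 differed by -8.70 points (SE 3.42, limma adjusted p = 0.416), from 9.94% and 7.46% with DMSO to no island with GSKJ4. On an arcsine square root scale SNAI2 passed as lower (limma adjusted p = 0.0189). FOSL1 differed by 9.82 points (SE 3.93, limma adjusted p = 0.427) and VIM by -6.13 points (SE 3.89). Without DMSO replicate 2, where VIM was at 0%, VIM passed as lower (-12.3 points, limma adjusted p = 0.0193). With islands of equal total length the calls over all genes went from 163 higher and 78 lower to 286 higher and 276 lower. With 2 libraries against 2, an exact permutation test of 1 gene cannot go below p = 0.333, so these calls rest on the spread shared across genes.

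The effect of the knockdown and that of GSKJ4 differed, by the interaction term of the same limma fit, at RUNX1 for H3K27me3 (3.44 points, SE 0.403, limma adjusted p = 0.00848) and at 8 of 9 genes for H3K4me1, beside 5.54% and 47.8% of all genes called in that direction and 2.54% and 7.83% in the other. For H3K4me1, TWIST1 was 14.4 points apart, from a rise of 7.97 with siKDM6B33 and a value of -6.43 with GSKJ4, and SNAI2 was 14.9 points apart, from 6.21 and -8.70. Neither SNAI2 difference passed on its own. The RUNX1 H3K27me3 call was lost with islands of equal total length (0.857 points, limma adjusted p = 0.574). There the balance over all genes turned, with 119 of 6912 called higher for the knockdown and 627 lower. Among the 8 for H3K4me1 was WWTR1, which again had to differ. That count was 2 to 5 of 9 without 1 library, where 5761 to 6554 of 14191 genes were called higher, and 4 of 8 genes tested with islands of equal total length, where 4333 of 10362 were. TWIST1 was 31.8 points apart in windows of the MANE Select transcript (limma adjusted p = 0.0171). RUNX1 passed in H3K4me1 without any 1 library, and the other 6 did not. Each treatment had its own control libraries.

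The experiments as wholes, treated and control libraries together, were also compared. SNAI2 H3K4me1 averaged 4.35% in the compound experiment against 33.3% in the knockdown experiment, and TWIST1 5.70% against 24.9%, with no overlap between 4 and 4 libraries in either gene. WWTR1 H3K27me3 averaged 0% against 1.59%, likewise without overlap. Each of the 3 reached p = 0.0286, the smallest that an exact permutation test of 4 against 4 can give, and none passed after adjustment (0.130, 0.130 and 0.0789). At an unadjusted p under 0.05, 20.9% of all genes had more H3K4me1 in the knockdown experiment and 1.08% in the compound experiment, while 13.1% had more H3K27me3 in the knockdown experiment and 23.1% in the compound experiment. After adjustment the share was 0% in either direction for both marks, where even the smallest possible p did not pass. Treatment agent, depth and experiment cannot be told apart here.

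Narrow peaks gave a second view. The 10 windows together held 44 and 45 H3K4me1 narrow peaks with siCtrl and 81 and 84 with siKDM6B33, or 3.35 and 3.58 against 6.22 and 6.53 per 10000 peaks of the library. With DMSO they held 37 and 22, and with GSKJ4 34 and 31. FOSL1 accounted for 5 and 6 of them with siCtrl and 20 and 18 with siKDM6B33, and TWIST1 for 12 and 17 against 23 and 21. A rise was usual over all genes. After the knockdown, limma on H3K4me1 coverage by narrow peaks called 8767 of 16895 genes higher and 1289 lower. For H3K27me3 the windows held 46 and 45 with siCtrl, 53 and 45 with siKDM6B33, 31 and 34 with DMSO and 42 and 43 with GSKJ4, and per 10000 peaks the siKDM6B33 values, 11.97 and 10.12, were below the siCtrl values of 14.2 and 13.5. The highest H3K4me1 fold enrichment at a summit was 18.8 at TWIST1, 13.0 at RUNX1, 12.5 at PRRX1 and 12.1 at SNAI2. The highest for H3K27me3 was 13.5 at RUNX1, 12.2 at PRRX1, 10.4 at YAP1 and 10.3 at FOSL1, against 5.80 or less at FOSL2, NOTCH2, TWIST1 and SNAI2.

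Binding motifs were searched for some of the genes' products and partners, but not for the homeobox of PRRX1. The letters of AP-1, TEAD, RUNX and the E-box were searched on both strands in the H3K4me1 narrow peaks of the windows. By library, the AP-1 letters TGANTCA were in 2.70% to 7.41% of these peaks, beside 5.73% to 8.01% of all H3K4me1 peaks, and the TEAD letters GGAATG in 6.45% to 13.6%, beside 9.78% to 10.7%. The RUNX letters TGTGGT were in 2.70% to 12.9%, beside 10.4% to 12.4%, and the E-box CANNTG, a core that SNAI2 and TWIST1 proteins bind, in 45.5% to 67.7%, beside 61.6% to 66.9%. With 22 to 84 peaks a library these shares move by several percent with a single peak or 2.

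Partner genes of the same pathways moved in both directions for H3K4me1 after the knockdown. ZEB1, CCN1, LATS1 and COL3A1 were covered in the siKDM6B33 libraries alone and CD44 in the siCtrl libraries alone, so they had to differ and are left out of the counts here. Without genes of either kind, 40.8% of 10431 genes were called higher and 10.7% lower. Among 4 further epithelial-mesenchymal transition factors, 2 rose and 1 fell, with ZEB2, a zinc-finger repressor, going from 7.81% and 7.70% to 25.5% and 23.1% (16.5 points, SE 1.12, limma adjusted p = 0.000129). Of 7 Hippo and TEAD genes none passed as higher and 1, TEAD2, fell (-6.21 points, SE 2.03, limma adjusted p = 0.044). For the other families, of 6 AP-1 genes 2 rose, led by JUND (21.0 points, SE 0.876, limma adjusted p = 1.93e-05), of 3 RUNX genes 1 rose, and of 12 NOTCH genes 4 rose and 1 fell, led by the ligand gene DLL1 (22.3 points, SE 1.76, limma adjusted p = 0.000237). Of 8 structural and surface genes 2 rose and 1 fell, the matrix glycoprotein gene SPARC (-19.2 points, SE 4.91, limma adjusted p = 0.0199). For H3K27me3, RUNX2, the relative of RUNX1, rose from 4.66% and 7.97% to 17.7% and 18.1% (11.6 points, SE 1.73, limma adjusted p = 0.0133). CD44, a hyaluronan receptor gene, was covered by H3K27me3 over 1.41% in both siKDM6B33 libraries and in no other library, so it had to differ. No further gene of these lists passed for H3K27me3 after the knockdown, beside 6.45% of 7815 genes called higher and 0.448% lower without genes covered in 1 group alone. With GSKJ4, 0 genes of these lists passed by limma in either mark, beside 1.15% of all genes called higher and 0.55% lower for H3K4me1 and 2.04% and 0.293% for H3K27me3.

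The adrenergic genes are given beside the 10, with no test between the lists. Of 15, 13 passed with more H3K4me1 than H3K27me3 by the exact permutation test and 0 with more H3K27me3, beside 36.9% and 13.3% of all genes, and their median of H3K27me3 minus H3K4me1 was -41.7 points, beside 1.79 over the 10 mesenchymal-state genes. After the knockdown, 6 of the 15 rose in H3K4me1, among them HAND2 (42.0 points, SE 6.56, limma adjusted p = 0.00335) and ISL1 (33.6 points, SE 4.07, limma adjusted p = 0.00127), and 3 fell, led by TH, the rate-limiting enzyme of catecholamine synthesis (-34.2 points, SE 5.11, limma adjusted p = 0.00287). Over all genes 55.8% were called higher and 8.27% lower, or 40.8% and 10.7% without those covered in 1 group alone. H3K27me3 was at 0 in both siCtrl libraries at 14 of the 15, yet TH was covered by it over 100% and 86.2% of its window with DMSO and 92.0% and 89.1% with GSKJ4, where H3K4me1 covered 92.7% to 97.0%. None of the 12 adrenergic genes tested by limma passed for H3K27me3 in either treatment, beside 8.91% of all genes called higher and 1.17% lower after the knockdown and 2.04% and 0.293% with GSKJ4.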

How the data were processed

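CUT&Tag libraries of 2 histone marks in BE2C cells were analysed, 16 in 8 groups of 2 replicates, with groups and replicate numbers taken from the sample titles. Per the labels and the study's methods, the authors trimmed reads with Trim Galore 0.4.4, aligned them to hg19 with BWA 0.7.12, removed duplicates with Picard 1.65, kept properly paired, uniquely mapped fragments with SAMtools 1.3.1, and called islands with SICER 1.1 and narrow peaks with MACS2 at a q threshold of 0.05, library by library without pooling. The deposited island score adds up the caller's window scores, so deeper libraries and wider islands have larger ones. It was used only to rank islands. The deposited narrow peak lists give a score, a fold enrichment (a ratio over the library's own background) and −log10 p and q values at each summit, and these were used to describe and filter peaks and to recover depth. Reads per region and the spike-in scaling factors of the authors were not used here, so coverage by islands was the measure, and it moves with the depth of a library. That depth, as background tags per base, was the lowest value solved from a library's most frequent pairs of fold and −log10 p. A share of a window has no counting interval here.

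Gene positions came from GENCODE 44 mapped to GRCh37 (gene bodies with 10 kb on either side), and all coordinates are 1-based hg19. The percent of each window inside islands was computed for all 20090 protein-coding genes. Treatments were compared with limma 3.58.1 (R 4.3.3, empirical Bayes with a trend) on genes covered in at least 2 of the 8 libraries of the mark (a filter that 1 group can meet alone), one fit over the 4 groups of a mark, with the knockdown, the GSKJ4 effect and their difference as contrasts and Benjamini-Hochberg adjustment over all genes tested. Marks and experiments were compared by two-sided exact permutation tests. Calls are at an adjusted p under 0.05. Other tools were Python 3.11.15, NumPy 2.4.6, pandas 2.3.3, SciPy 1.17.1 and matplotlib 3.10.9. The scripts were tested on simulated data.

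All 10 genes are named. From lists of pathway partners, markers of other cells and adrenergic genes, those past the threshold were named, at most 4 a comparison by size. PECAM1 of the marker list was not matched. Sequences were printed for genes whose strongest H3K4me1 peak was called in at least 6 of 8 libraries, outside UTRs, leaving out SNAI2, and for PRRX1 by choice after its values were seen. The result of 1 adrenergic gene and 1 sequence are not reported here. The genes and lists were chosen with earlier results of these data known. Alternatives changed the flank, the window, the joining of islands, their length, the scale, the replicate block and the libraries included. The windows around the MANE Select transcript, the marks within each experiment, the experiments without 1 library each and the start of the MANE Select transcript were added after seeing the data.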

Additional observations from a re-analysis of the deposited data

Results flagged for a closer look

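The effects of siKDM6B33 and GSKJ4 on coverage differed, by the interaction term of the limma fit, in 9 gene and mark pairs. For H3K27me3 the difference was 3.44 points at RUNX1 (SE 0.403, limma adjusted p = 0.00848), a call lost with islands of equal total length (0.857 points, limma adjusted p = 0.574), with narrow peaks (-0.000606 points) and with a replicate block (limma adjusted p = 0.0669), and at 13.3 points (limma adjusted p = 0.00875) with windows of the MANE Select transcript. For H3K4me1 it was 22.5 points at VIM (SE 5.50, limma adjusted p = 0.0203), 20.6 at FOSL1 (SE 5.55, limma adjusted p = 0.0274), 14.9 at SNAI2 (SE 4.84, limma adjusted p = 0.0485), 14.4 at TWIST1 (SE 3.40, limma adjusted p = 0.0179) and 7.76 at PRRX1 (SE 2.34, limma adjusted p = 0.039). It was 2.66 points at YAP1 (SE 0.776, limma adjusted p = 0.0354), 0.960 at WWTR1, which was covered in the siKDM6B33 libraries alone and so had to differ, and 0.340 at RUNX1 (SE 0.0719, limma adjusted p = 0.0126). With islands of equal total length, calls were lost at SNAI2 (4.14 points, limma adjusted p = 0.643), YAP1 (0.909 points, limma adjusted p = 0.366) and FOSL1 (14.3 points, limma adjusted p = 0.101). SNAI2 was also lost with flanks of 5 kb, the gene body, 5 kb around the start, islands joined within 2 kb and islands of 2 kb or more (limma adjusted p = 0.0527 to 0.525), and FOSL1 under the same 5 (limma adjusted p = 0.0584 to 0.233). The gene body also lost PRRX1 and YAP1 (limma adjusted p = 0.0975 and 0.0643), narrow peaks lost RUNX1 (limma adjusted p = 0.943), and MANE Select windows gave 31.8 points at TWIST1 and 1.49 at RUNX1 (limma adjusted p = 0.0171 and 0.00292). Leaving out 1 library at a time raised the limma adjusted p to as much as 0.0821 at FOSL1, 0.123 at PRRX1, 0.129 at SNAI2, 0.0664 at TWIST1, 0.0795 at VIM and 0.115 at YAP1, and all 6 of these calls were lost without either siCtrl library. With a replicate block it was 0.0635 at FOSL1, 0.105 at PRRX1, 0.0863 at YAP1 and 0.0649 at RUNX1 for H3K4me1. All were in the direction of a larger value for the knockdown, as in 47.8% of all genes for H3K4me1 and 5.54% for H3K27me3. With islands of equal total length, 119 of 6912 genes were called in that direction for H3K27me3 and 627 in the other. The siKDM6B33 libraries were deeper than siCtrl in both marks, while for H3K4me1 those with GSKJ4 lay within the range of DMSO at 0.0547 and 0.0559 against 0.0569 and 0.0483 background tags per base. For H3K27me3 both GSKJ4 libraries, at 0.0507 and 0.0371, were deeper than both DMSO libraries, at 0.0298 and 0.0338, and the part of depth in these differences was not tested.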

How the results depend on the processing

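Of 1091 recomputed values of single genes, 918 kept their direction and their side of the threshold, 95 lost a call, 15 gained one and 63 changed sign. Of these 63, 3 belonged to values that had been called, all under coverage by narrow peaks, which rests on far less DNA. Of the 918, 267 came from the comparison of experiments, where no setting made a call. Of the 95, 12 came from tests of the marks within 1 experiment, which cannot pass. Depth and the caller's threshold limit every value, since coverage reads only what was called in a library, and 2 replicates a group leave the tests to the spread shared over genes. The experiments made no call under any alternative. In the main setting none was possible, as the smallest exact permutation p, 0.0286, became 0.130 for H3K4me1 and 0.0789 for H3K27me3 after adjustment. The lack of calls is therefore not evidence of stability or of equal coverage. Causes of the changes below were not tested.

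With coverage by narrow peaks, values in percentage points were, for H3K27me3 minus H3K4me1, -0.914 at FOSL1, -0.274 at VIM and -0.0232 at WWTR1. For the compound minus the knockdown experiment they were -0.713 at FOSL1, 0.0750 at VIM and 0.00227 at YAP1 for H3K27me3, and -0.128 at PRRX1, -0.00198 at RUNX1 and -0.116 at YAP1 for H3K4me1. For siKDM6B33 and H3K27me3 they were -0.00861 at NOTCH2, -0.114 at VIM, -0.00230 at WWTR1 and -0.0892 at YAP1, with 0 genes called and a median over the 10 genes of -0.00545 against 2.03. For GSKJ4 and H3K27me3 they were -0.00861 at NOTCH2, 0.0187 at RUNX1, 0.261 at VIM and -0.0224 at YAP1. For siKDM6B33 and H3K4me1 they were 0.214 at FOSL2 and -0.0449 at WWTR1, with a median of 0.365 against 3.98. For GSKJ4 and H3K4me1 they were -0.100 at FOSL2, 0.0274 at PRRX1, 0.0151 at RUNX1, 0.344 at SNAI2, 0.0184 at TWIST1 and 0.0129 at YAP1, with a median of 0.0140 against -0.463. For the knockdown minus the GSKJ4 effect they were -0.0561 at FOSL1, -0.000606 at RUNX1, -0.375 at VIM and -0.0668 at YAP1 for H3K27me3, with 0 genes called, and 0.314 at FOSL2 and -0.00919 at WWTR1 for H3K4me1.

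With islands of equal total length, H3K27me3 minus H3K4me1 was -0.766 at VIM, and H3K27me3 in the compound minus the knockdown experiment was 0.0390 at YAP1. After the knockdown H3K27me3 was -9.54 at VIM and -0.490 at YAP1 with a median of 0, and H3K4me1 was 0.669 at FOSL2 and -4.56 at SNAI2 with a median of 0.496. With GSKJ4 VIM H3K27me3 was 3.75. The difference of effects was -13.3 at VIM, -3.02 at YAP1 and 0.857 at RUNX1, no longer called, for H3K27me3, and 4 genes were called for H3K4me1. In 5 kb around the start, the experiments differed by -7.32 at FOSL1 and 3.33 at PRRX1 for H3K27me3 and by 7.999 at FOSL1 for H3K4me1. There the knockdown gave 0 genes called and a median of 0 for H3K27me3, where FOSL1, PRRX1, VIM and YAP1 were tested and RUNX1, NOTCH2 and WWTR1 were covered in too few libraries to be, and 3.00 at FOSL2 with a median of 16 for H3K4me1. GSKJ4 gave -15.0 at FOSL2 for H3K4me1, and the difference of effects was -5.88 at YAP1 with 0 of the same 4 genes called for H3K27me3 and 18.0 at FOSL2 with 4 called for H3K4me1, where RUNX1 and WWTR1 were not tested.

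For the comparison of marks, calls were lost in 12 tests within 1 experiment, which cannot pass, at TWIST1 in 5 kb around the start and at SNAI2 with islands of 2 kb or more, and gained at FOSL1 in 5 kb around the start. With the gene body alone, the knockdown median for H3K27me3 was 0.203, GSKJ4 gave -0.488 at YAP1 with 1 gene called lower, FOSL1, and the difference of effects gave 4 genes for H3K4me1. The knockdown medians were 1.34 with flanks of 5 kb for H3K27me3 and 2.12 with islands of 2 kb or more for H3K4me1. On the arcsine square root scale 1 gene, SNAI2, was called lower for H3K4me1 with GSKJ4. Narrow peaks with a −log10 q of at least 5 moved the differences per 10000 from -1.38 to -7.38 for H3K27me3 with GSKJ4, from 2.91 to 5.36 for H3K4me1 with siKDM6B33 and from 0.0183 to 2.24 for H3K4me1 with GSKJ4.

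Libraries with the same replicate number shared little deviation in coverage. Their deviations correlated across genes at -0.00135 to 0.0741 for 3 of the 4 sets and at -0.0614 for the other. This does not show whether the samples were processed as pairs. With a replicate block, RUNX1 H3K27me3 stayed called after the knockdown, H3K4me1 calls went from 7 genes to 5, and the difference of effects gave 0 genes for H3K27me3 and 4 for H3K4me1. Over all genes the block gave 379 higher and 57 lower for H3K27me3 after the knockdown and 0 in either direction with GSKJ4 in both marks, with 1108 and 1552 genes under an unadjusted p of 0.05.

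Over all genes, counts of calls moved by over 1.5 times under several alternatives. For H3K27me3 the range of higher and of lower calls was 75 to 793 and 25 to 789 after the knockdown and 0 to 752 and 0 to 269 with GSKJ4. For H3K4me1 it was 4748 to 8767 and 352 to 1331 after the knockdown and 0 to 349 and 0 to 286 with GSKJ4. For the difference of effects in H3K27me3, 454 higher and 208 lower became 119 and 627 with islands of equal total length. With narrow peaks they became 0 and 0.

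Leaving out 1 library of the comparison at a time, genes called higher numbered 1 to 3 for H3K27me3 after the knockdown, 0 to 1 with GSKJ4 and 1 to 3 for the difference of effects, and 3 to 4 after the knockdown and 2 to 5 for the difference in H3K4me1. Genes called lower with GSKJ4 numbered 0 to 1 in each mark. Knockdown medians were 0.970 to 1.72 for H3K27me3 and 1.53 to 4.56 for H3K4me1. With GSKJ4, H3K27me3 ranged from -40.7 to 8.70 at FOSL1, -1.66 to 2.48 at PRRX1 and -7.84 to 3.75 at VIM, and narrow peaks per 10000 from -3.24 to 0.487. H3K4me1 ranged from -3.34 to 10.5 at FOSL2, -3.21 to 1.34 at PRRX1 and -0.0485 to 0.0162 at RUNX1, and narrow peaks per 10000 from -0.659 to 0.696. FOSL2 H3K4me1 after the knockdown ranged from -9.81 to 0.892. The difference of effects for H3K27me3 ranged from -12.1 to 37.2 at FOSL1, -0.143 to 5.78 at NOTCH2, -1.02 to 10.6 at VIM and -1.34 to 3.01 at YAP1.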
